A study of Homo sapiens with 18 samples.

Results

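The regions described here were called as open chromatin after 12 h of erlotinib, in at least 5 of the 6 libraries of sorted cells, and were called neither in the 6 sorted DMSO libraries nor in the 3 libraries of drug-tolerant persisters (DTP). They numbered 473 of the 79483 regions obtained by merging the peaks of all 18 libraries on chromosomes 1 to 22 and X wherever they shared at least 1 bp. They were chosen by these calls alone, and are called transient regions below after that pattern. All cells were PC9, an established human lung adenocarcinoma line driven by mutant EGFR. Cells exposed for 12 h to 1 µM erlotinib were sorted with Aldefluor, a fluorescent aldehyde dehydrogenase (ALDH) substrate, into ALDH-high and ALDH-low fractions, and cells given DMSO for 12 h were sorted in the same way. DTP were the cells alive after 8 days in 1 µM erlotinib, and the unsorted DMSO population is called PC9. Each of the 6 groups had 3 libraries, lettered a, b and c, and nothing in the labels says that these came from separate cultures. DTP were not sorted while the 12 h cells were, so duration of treatment and sorting cannot be told apart in the absence of these regions from DTP.

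Erlotinib blocks the kinase of the epidermal growth factor receptor, and with it the MAPK and PI3K signalling that EGFR-mutant lung cancer cells live on. Most cells die, and a small slow-cycling fraction persists in a state that is reversible and has been tied to altered chromatin. ATAC-seq marks DNA that a transposase can reach, mainly promoters and enhancers. An enhancer opens and closes as transcription factors bind and leave it, so a region can be accessible during the acute response and closed in the population that survives. The study asked how chromatin structure differs between the parental population, its persisters and its ALDH fractions.

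Peak lists held 34324 to 40717 peaks in ALDH-high and 32586 to 40675 in ALDH-low cells after erlotinib, and 42207 to 45244 in DTP. They held 30339 to 32824 in ALDH-high DMSO, 26228 to 26444 in ALDH-low DMSO and 39397 to 41834 in PC9 libraries. The DTP lists were thus the longest of the series. All but 1 of the sorted DMSO lists were shorter than every erlotinib list, the exception being ALDH-high DMSO library a, which was longer than ALDH-low erlotinib library c. Read depth is unknown, so a region without a peak may have been too weak to be called rather than closed. Because the comparison of erlotinib with DMSO and DTP chose the regions, its calls are given as a description.

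Of all regions, 2.49% (1983) were held by at least 5 of the 6 erlotinib libraries and by none of the sorted DMSO libraries, and 0.595% were also absent from DTP. Among the 1983 regions opened at 12 h, 473 (23.9%) were called in no DTP library, 612 in 1 or 2 and 898 in all 3. The last are called kept regions. Regions held by at least 5 of the 6 erlotinib libraries lacked a DTP call in 4.33% of 28368 cases, and in 2.87% of the 26385 cases in which a sorted DMSO library also held them. Of the 15105 regions without a sorted DMSO or DTP call, 3.13% met the requirement of 5 erlotinib libraries. In the 6 libraries that defined opening, 448, 384 and 443 transient regions were called in ALDH-high libraries a, b and c, and 459, 428 and 390 in ALDH-low libraries a, b and c. ALDH-high library b and ALDH-low library c, whose lists were the shortest of the 6, missed the most. All 6 libraries held 187 transient regions. The other 286 lacked 1 library, which was ALDH-high for 144 and ALDH-low for 142.

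The edge of the rule ran through regions of graded strength. Each peak has a score from the authors' caller, expressed here as its percentile within its own list, with 100 for the top peak. In the weakest erlotinib library that held it, a transient region had a median percentile of 16.4 if held by all 6 libraries and of 9.35 if held by 5. Just outside the rule, 438 regions held by 4 of the 6 erlotinib libraries and by no sorted DMSO or DTP library had 7.56. The 300 regions opened at 12 h and called in 1 DTP library had 11.1. A further 164 regions, in at least 5 erlotinib libraries, no DTP and 1 sorted DMSO library, had 12.3. Most transient regions therefore lay in the lower part of the lists, and a score of at least 100 in the erlotinib lists alone, a limit set after seeing the data, left 166 of the 473. With every list shortened to the 26225 peaks of the shortest, 333 regions met the rule, of which 106 overlapped one of the 473.

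**Figure D1:**
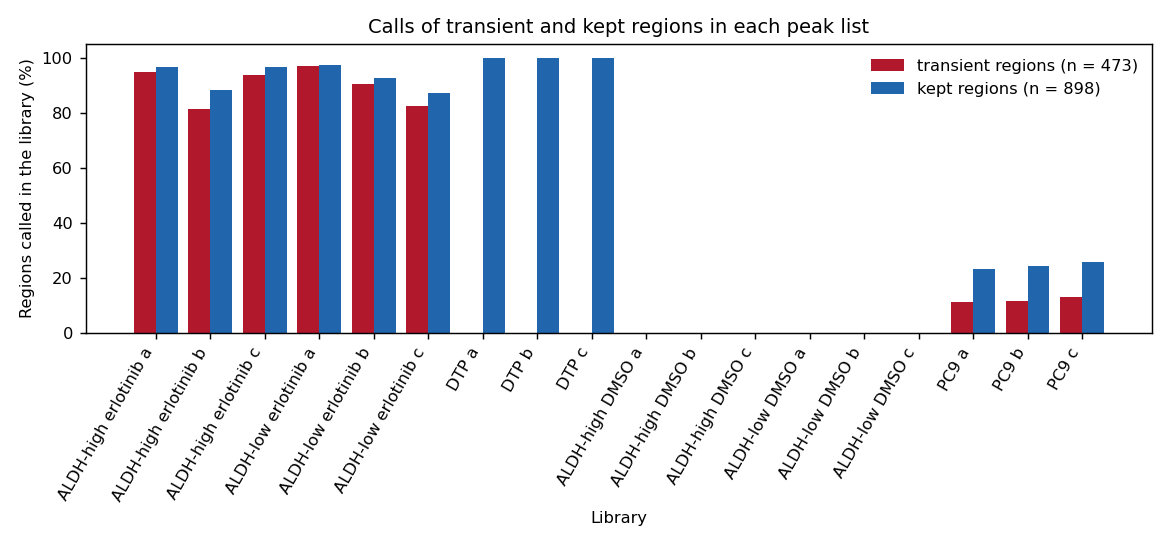
Share of the 473 transient regions (red) and the 898 kept regions (blue) called in each of the 18 libraries, in percent of the set. Transient regions were at 81.2% to 97.0% in the erlotinib 12 h libraries and at 0 in DTP and sorted DMSO libraries by their definition. The PC9 lists held 11.2% to 13.1% of them, against 23.2% to 25.6% of kept regions. PC9 peaks took part in merging, but the rule set no condition on PC9 calls.

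Positions are on hg19, counted from 1, with the cytogenetic band. Gene coordinates and sequence of that build were not used here, and the regions are therefore named by position. The highest-ranking transient region was at 15q26.1 (chromosome 15, 90310097 to 90311770). Its percentiles were 83.5, 89.0 and 89.4 in ALDH-high libraries a, b and c and 92.05, 85.2 and 95.04 in ALDH-low libraries a, b and c after erlotinib. It lay in the upper part of all 6 lists, the fractions overlapped, and the nearest DTP peak lay 4431 bp away. It was also absent from all PC9 libraries.

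The next region in rank, at 3q13.2 (chromosome 3, 112470472 to 112471577), stood well below. It had percentiles of 61.1, 79.9 and 63.7 in ALDH-high and 63.6, 87.6 and 78.5 in ALDH-low libraries. At 10q21.3 (chromosome 10, 69885195 to 69886462), in one of the darkest Giemsa stain classes, they were 85.3, 69.2 and 78.7 in ALDH-high and 84.7, 69.2 and 59.1 in ALDH-low libraries. Both regions overlapped between fractions and had no PC9 call, and their nearest DTP peaks were 19643 and 8882 bp away. The region at 19p13.3 (chromosome 19, 858665 to 861256) had 67.4, 60.8 and 72.5 in ALDH-high and 60.6, 59.6 and 57.6 in ALDH-low libraries. Its fractions did not overlap, with ALDH-high cells higher. At 2q37.3 (chromosome 2, 237733082 to 237734446) the order was the opposite, with 58.2, 64.2 and 56.5 in ALDH-high against 71.4, 71.4 and 69.0 in ALDH-low libraries.

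The other 10 of the 15 highest-ranking regions had a percentile between 44.3 and 55.6 in their weakest library. They were Xq23 (109002793 to 109004332), 4q24 (102614619 to 102615873), 6q25.2 (153200398 to 153201605), 7p15.1 (28612366 to 28614173), 10p12.1 (26692322 to 26693181), 2q14.2 (119120806 to 119121928), 2p24.1 (23648127 to 23649504), 1q32.1 (201910265 to 201911554) and a pair at 3q27.3. The pair at 3q27.3 (chromosome 3, 187720864 to 187722221 and 187567422 to 187569024) lay 151839 bp apart. The higher-ranking of them had 63.8, 54.9 and 65.2 in ALDH-high and 65.6, 63.8 and 59.8 in ALDH-low libraries. The other had 49.3, 44.3 and 57.3 in ALDH-high and 84.4, 57.1 and 59.0 in ALDH-low libraries, so that ALDH-low library a stood apart. Of the 15 regions, 14 were called in no PC9 library, where 78.0% of all transient regions had no PC9 call. The exception was 2p24.1, called in PC9 library a at percentile 14.9, against 60.4 to 66.6 in ALDH-high and 46.9 to 59.8 in ALDH-low cells after erlotinib. A DTP peak lay within 5 kb of 4 of the 15, against 36.2% of all transient regions, the closest being 7p15.1 at 1148 bp.

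**Figure D2:**
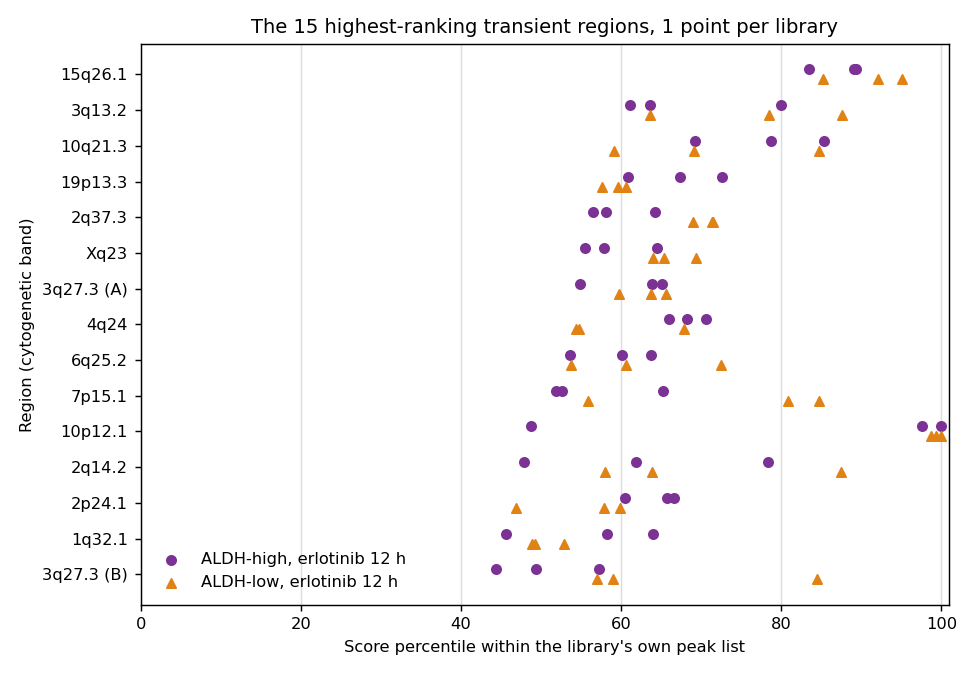
Score percentile within each library's own peak list (x axis, 0 to 100) of the 15 highest-ranking transient regions (y axis, by band, with 3q27.3 A the higher-ranking of its pair), 1 point for each of the 3 ALDH-high (circles) and 3 ALDH-low (triangles) libraries after 12 h of erlotinib. In 12 of the 15 the fractions overlap (over the whole series, 9.23% of regions held by all 6 had ALDH-high above ALDH-low without overlap and 5.95% the reverse), 15q26.1 lies above 83 in every library, and 10p12.1 spans 48.8 to 100.

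A few transient regions had at least 1 peak that combined a very high score with a narrow width. These were picked after their values were seen, as members with a peak above the percentile of 95 and no wider than 800 bp. At 10p12.1 the percentiles were 100, 48.8 and 97.6 in ALDH-high and 99.3, 99.9 and 98.7 in ALDH-low libraries, and the peak in ALDH-high library a was the top peak of its list of 40717. Its peaks were 380, 584 and 380 bp wide in ALDH-high and 476, 633 and 764 bp in ALDH-low libraries. At 9q31.3 (chromosome 9, 114014314 to 114015089) percentiles ran from 6.34 to 99.7 in ALDH-high and from 69.0 to 99.0 in ALDH-low libraries, and 4 of the 6 peaks were 381 bp wide. The region at 2p24.1 (chromosome 2, 20504728 to 20505875) had 29.2 to 99.9 in ALDH-high and 83.9 to 98.1 in ALDH-low libraries. Its peaks were 761, 553 and 678 bp wide in ALDH-high libraries and 1006, 1042 and 381 bp in ALDH-low libraries, so that its highest-ranking ALDH-low peak, in library b, was not narrow. At 7q21.11 (chromosome 7, 82093104 to 82094154), absent from ALDH-high library b, the highest value was 95.9, in ALDH-high library a, where the peak was 533 bp wide. For comparison, all peaks above the percentile of 95 had a median width of 1583 to 1605 bp in ALDH-high and 1587 to 1622 bp in ALDH-low libraries. No more than 0.933% of them in any of these libraries were as narrow as 800 bp or less. In each of the 4, the ALDH-high libraries lay further apart than at 15q26.1. The choice of the regions shapes this comparison, since 15q26.1 ranks first by its lowest value and the 4 were picked for a very high one. No DTP, PC9 or sorted DMSO library held any of the 4.

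The ALDH fractions overlapped in how many transient regions they held, which the rule allowed to differ only a little. On average 89.9% ± 7.53 of them were called in ALDH-high and 90.0% ± 7.31 in ALDH-low libraries after erlotinib (SD, n = 3 each). The median percentile was 30.4 ± 3.72 in ALDH-high libraries (32.7, 26.1 and 32.4 in a, b and c) and 35.4 ± 4.65 in ALDH-low libraries (40.6, 33.9 and 31.7). In this measure, too, the fractions overlapped. The difference of −4.95 points between ALDH-high and ALDH-low libraries was −1.32 without ALDH-low library a and −1.97 without ALDH-high library b. Among the 187 regions held by all 6 libraries, all ALDH-high values exceeded all ALDH-low values in 7 (3.74%), against 9.23% of the 23126 regions of the whole series held by all 6. The reverse held for 23 (12.3%), against 5.95% of the whole series. Beside 2q37.3, the regions higher in ALDH-low cells with the highest ranks were 4q31.21 (chromosome 4, from 145924493) and 3q27.1 (chromosome 3, from 183409814). At 4q31.21 the percentiles were 39.0, 37.7 and 53.5 in ALDH-high and 71.9, 81.8 and 76.4 in ALDH-low libraries, and at 3q27.1 they were 34.7, 29.3 and 57.5 in ALDH-high and 79.9, 78.0 and 73.0 in ALDH-low libraries. Those higher in ALDH-high cells included 10q22.1 (chromosome 10, from 72611216), with 52.7, 33.7 and 49.8 in ALDH-high and 0.165, 15.5 and 7.98 in ALDH-low libraries, and 10q26.2 (chromosome 10, from 128128236), with 54.4, 45.6 and 69.7 in ALDH-high and 31.4, 23.3 and 12.2 in ALDH-low libraries. These examples were chosen after their values were seen. The mean percentiles of the fractions were less alike across the 187 transient regions (Spearman's rho 0.497) than across 530 kept regions (0.605) or all 23126 (0.885), which is a description across regions of the same libraries. The span of percentiles differed between these sets, which affects rho.

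In each library after 12 h of erlotinib the median score percentile of transient regions lay below that of kept regions. The difference did not pass adjustment for the number of tests, which no outcome could have passed with these library numbers. Both sets met the same rule on erlotinib and sorted DMSO calls and were parted by their DTP calls. The median percentile of transient regions was 32.7, 26.1 and 32.4 in ALDH-high libraries a, b and c, against 44.4, 35.6 and 44.6 for kept regions. In ALDH-low libraries a, b and c it was 40.6, 33.9 and 31.7 for transient regions, against 47.1, 40.6 and 31.7 for kept regions. The mean difference over libraries was −7.78 ± 4.47 percentile points (SD, n = 6), and transient regions were lower in 6 of 6 libraries, although in ALDH-low library c the signed difference was only −0.0476 points. An exact two-sided permutation test, exchanging the sets within each library, gave p = 0.031, the smallest possible with 6 libraries. The libraries all measured the same sets of regions and are not known to be separate cultures. The test thus concerns repetition over libraries and does not measure the spread between regions. Adjusted by the Benjamini-Hochberg method over 6 tests, some of which compared ALDH fractions or used PC9 libraries, this exact permutation p was 0.1875 and did not pass. Only the tests exchanging sets within 6 libraries could give an exact permutation p below 0.1. No outcome of the 6 tests could thus have given an adjusted value under 0.05, so the adjustment cannot decide the question. When all 6 erlotinib libraries were required to hold a region, the exact permutation p was 0.0625. The difference was −11.1 ± 1.42 points in ALDH-high and −4.44 ± 3.80 in ALDH-low libraries, without overlap. The lack of overlap was seen in the data before a test was run. With 3 libraries against 3 it fixes the exact permutation p at 0.1, the smallest possible, so the test adds nothing to these values.

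**Figure D3:**
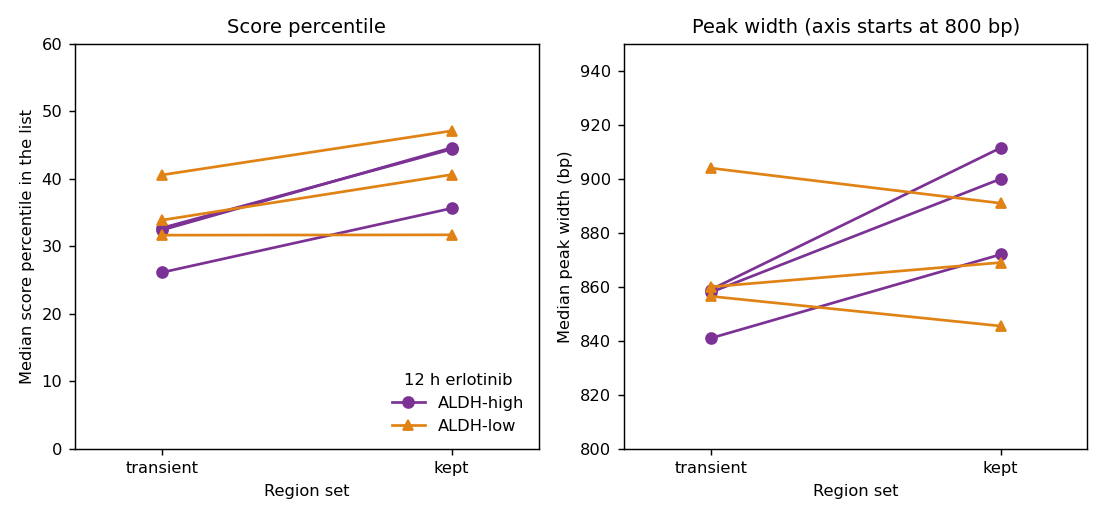
Median score percentile (left) and median peak width in bp (right, axis from 800 bp) of transient and kept regions in each of the 6 libraries after 12 h of erlotinib, with 1 line per library (circles, ALDH-high; triangles, ALDH-low). Percentiles of transient regions run from 26.1 to 40.6 and those of kept regions from 31.7 to 47.1, while the lines for width cross.

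The strength of a region at 12 h and its calls in DTP ran together across the 1983 regions opened at 12 h. Of those whose weakest erlotinib library put them at a percentile of up to 20, 26.3% of 1285 were transient and 40.5% were kept. Between 20 and 40 the shares were 22.1% and 48.0% of 494 regions, between 40 and 60 they were 14.8% and 66.7% of 162, and between 60 and 80 they were 2.70% and 81.1% of 37. The top class held 5 regions, of which the region at 15q26.1 was transient and 3 were kept, too few for a share to be read. A median percentile above 50 over the libraries holding it was reached by 72 transient regions (15.2%) and 282 kept regions (31.4%), and one above 80 by 3 transient and 10 kept regions.

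**Figure D4:**
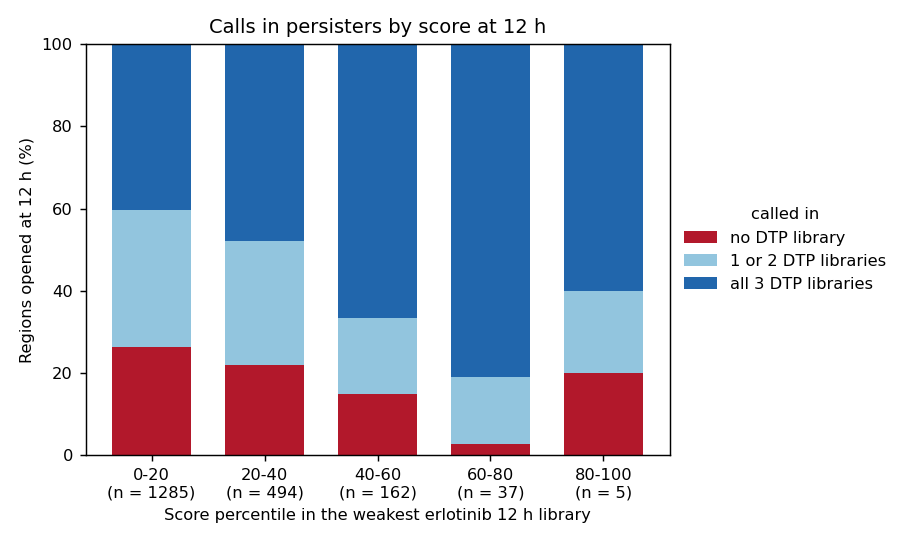
Shares (in percent, stacked to 100) of the regions opened at 12 h that were called in no DTP library (red, transient), in 1 or 2 (light blue) and in all 3 (dark blue, kept), by the score percentile in the weakest erlotinib library that held the region, with the number of regions under each bar. The transient share is 26.3% in the lowest class and 2.70% between 60 and 80; the last bar holds 5 regions.

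The rule set no condition on PC9 calls, which show the regions in unsorted cells without erlotinib. PC9 peaks did take part in the merging that formed the regions, so these calls are not fully independent of the rule. PC9 libraries a, b and c held 53, 55 and 62 of the 473 transient regions, on average 12.0% ± 0.999, against 24.3% ± 1.23 of the kept regions (SD, n = 3). The ranges did not overlap, but 3 libraries cannot give an exact permutation p below 0.25. At least 1 PC9 library held 104 transient regions (22%), against 40.3% of the kept regions and 40.1% of the 14632 other regions without a sorted DMSO or DTP call. All 3 PC9 libraries held 15 transient regions (3.17%), against 9.8% of the kept regions and 3.79% of those other regions. Each of those other regions was formed by PC9 peaks, or by peaks of too few erlotinib libraries for the rule, or by both. Those without an erlotinib call have a PC9 call by construction, while transient regions need none. The 40.1% and 3.79% are therefore not like backgrounds, and no conclusion is drawn from them. Over all regions, 3.05% were called in all PC9 libraries and in no DTP library. That share also counts the lack of a DTP call, which transient regions have by rule. It is therefore not a like background for the 15, which are given as a description. PC9 peaks in transient regions were weak and narrow, with median percentiles of 19.3, 15.4 and 16.7 and median widths of 606, 609 and 587 bp in libraries a, b and c. Those in kept regions were likewise weak and narrow, with 21.6, 19.5 and 22.8 and with 653, 617 and 619.5 bp. In 100 of the 104 regions the PC9 peak overlapped the bases shared by the erlotinib peaks. With lists of equal size the share with a PC9 call was 7.21%, and the mean over libraries differed from that of kept regions by −3.36 percentage points instead of −12.3. The PC9 lists were longer than the sorted DMSO lists, and no other test of list length in these calls was made.

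Of the 15 regions held by all PC9 libraries, 9q32 (chromosome 9, 117126235 to 117127467) ranked highest. Its percentiles were 44.2, 31.8 and 55.8 in ALDH-high and 61.7, 40.5 and 37.7 in ALDH-low cells after erlotinib, against 53.4, 14.8 and 8.56 in PC9. The groups overlapped through PC9 library a. At 2p13.1 (chromosome 2, 74494010 to 74494964) they were 31.6, 37.9 and 32.3 in ALDH-high cells, 50.7 and 38.4 in ALDH-low libraries a and b, and 18.42, 22.96 and 32.56 in PC9. The region at 7p14.3 (chromosome 7, 30328872 to 30330503) had 25.6 to 65.0 over the erlotinib libraries and 19.7 to 24.2 in PC9, without overlap. At 3q25.33 (chromosome 3, 159502494 to 159503833) the erlotinib libraries had 23.8 to 45.8 and PC9 10.7 to 36.1. At 11p15.2 (chromosome 11, 14551165 to 14552189) they had 21.1 to 62.4 and PC9 22.1 to 47.1. Apart from 7p14.3, the erlotinib and PC9 values of these 5 regions overlapped.

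The width of transient regions overlapped widely with that of kept regions. Their median after merging was 1098 bp, with a range of 578 to 4147 bp, against 1143 bp for kept regions with a range of 732 to 3769 bp, and together they spanned 551548 bp. Peaks in them had a median width of 852.7 ± 10.1 bp in ALDH-high and 873.5 ± 26.5 bp in ALDH-low libraries (SD, n = 3 each). Against kept regions the difference was −18.4 ± 27.6 bp over 6 libraries (exact permutation p = 0.219, adjusted 0.45), with transient regions narrower in 4 of 6. It was 0.25 bp, in the opposite direction, when peaks had to cover 50% of a region. The strongest peaks of the libraries holding a region shared bases in 471 of the 473, over a median of 611 bp or 56.0% of their joint span. Kept regions were much the same, with 893 of 898, 608 bp and 55.8%. The 2 transient regions without shared bases were among the 5 widest. The widest was at 1p35.2 (chromosome 1, 32046687 to 32050833). From the first to the last called base, gaps between peaks included, it spanned 3807 to 4140 bp in 5 libraries and 1545 bp in ALDH-low library c. At 12q13.13 (chromosome 12, 52623739 to 52626186) percentiles were 3.75 to 55.0 in ALDH-high and 5.97 and 13.6 in ALDH-low libraries a and b, and the nearest DTP peak lay 51 bp away. At 22q13.31 (chromosome 22, 46932474 to 46936000), absent from ALDH-high library a, percentiles were 30.8 and 55.1 in ALDH-high libraries b and c and 62.5, 57.7 and 53.3 in ALDH-low libraries. The fifth of the widest was a second region at 1q32.1 (chromosome 1, 202168025 to 202170230), with 70.8, 43.2 and 65.4 in ALDH-high and 39.8 and 25.0 in ALDH-low libraries a and b.

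At the other end, the 3 lowest-ranking regions each had a peak at the floor of a list. Without that peak, 12q24.32 and 16q22.2 would not have met the rule, while 5q31.3 was held by all 6 erlotinib libraries. At 12q24.32 (chromosome 12, 126458791 to 126459762) the lowest percentile was 0.0296, in ALDH-high library c, beside 58.8 in ALDH-high library a. At 5q31.3 (chromosome 5, 140943435 to 140944452) it was 0.0357, in ALDH-low library b, beside 26.7 in ALDH-low library a. At 16q22.2 (chromosome 16, 71548650 to 71549695) it was 0.0829, in ALDH-low library c, beside 18.7 in ALDH-low library a. Libraries of the same fraction thus put 1 region at very different ranks, and over the 187 regions held by all 6 libraries the SD of the 6 percentiles had a median of 15.2 points, against 14.5 for kept regions and 9.83 for all regions held by all 6.

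Transient regions were spread over every chromosome. Chromosome 1 held 51 (10.8%, against 9.91% of all regions) and chromosome 2 held 49 (10.4%, against 9.26%). Chromosome 3 held 47 and chromosome 6 held 41. Chromosome 3 had 9.94% of transient regions, against 6.90% of kept regions, 7.08% of the 14070 regions called in all 18 libraries and 7.09% of all regions. Chromosome 6 had 8.67%, against 6.24%, 6.63% and 6.57%. Chromosome 15 had 4.02%, against 3.67%, 2.53% and 2.79%, and chromosome 12 had 4.44%, against 2.78%, 4.16% and 4.23%. Chromosome 21 held 6 transient regions (1.27%) and 4 kept regions (0.445%), against 1.05% of all regions. Chromosome 5 had a lower share, 5.29%, against 7.80% of kept regions, 6.09% of the regions called in all libraries and 6.26% of all regions. Chromosome 7 had 4.86%, against 7.02%, 6.61% and 6.01%, and chromosome 16 had 2.11%, against 3.79%, 3.33% and 3.10%. Chromosome 19 had 1.90%, against 2.12% of kept regions, 3.86% of the regions called in all libraries and 2.92% of all regions. The 2 darkest Giemsa classes, which are AT-rich and gene-poor, held 20.5% of transient and 20.5% of kept regions, near the 21.7% of all 79483 regions. They held 17.3% of the regions called in all libraries and 29.8% of the chromosomes by length. These shares are descriptions, since neighbouring regions are not independent.

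**Figure D5:**
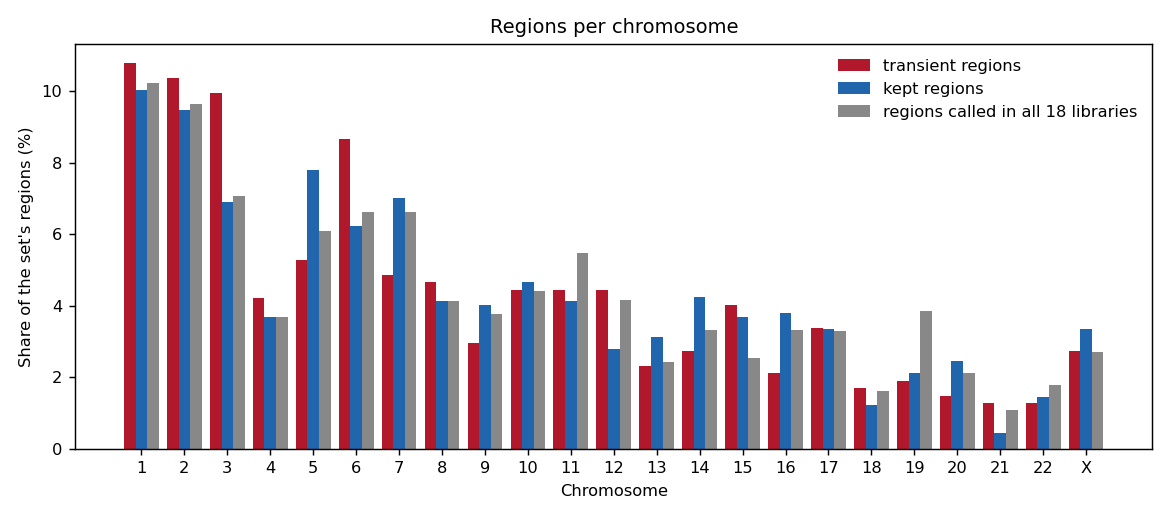
Share of transient regions (red), kept regions (blue) and regions called in all 18 libraries (grey) on each chromosome, in percent of each set. Transient regions are at 9.94% on chromosome 3 and 8.67% on chromosome 6, and at 1.90% on chromosome 19, where the regions called in all libraries are at 3.86%.

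Transient regions stood mostly alone. The nearest other transient region was a median of 1401234 bp away, and 37 of the 473 (7.82%) had one within 50 kb, against 3.01% of kept and 3.52% of universally called regions with a transient region at that distance. Kept regions had another kept region within 50 kb in 7.35% of cases. The 37 transient regions formed 18 groups. The only group of 3 was at 12q22 (chromosome 12), at 93528689 to 93529728, 93557633 to 93558721 and 93608412 to 93609442, a span of 80754 bp. The first of these had percentiles of 42.7, 24.5 and 18.2 in ALDH-high and 64.2, 13.2 and 46.8 in ALDH-low libraries. ALDH-high library b, one of the short lists, did not hold the other two, whose values were 54.5 and 49.9 and then 20.2 and 28.2 in ALDH-high libraries a and c. In ALDH-low libraries a, b and c they were 46.2, 56.2 and 28.3 and then 21.7, 29.5 and 42.3. At 2p21 a strong region (chromosome 2, 47197351 to 47198700) with 78.3, 80.3 and 70.6 in ALDH-high and 71.9, 38.5 and 45.0 in ALDH-low libraries had a weaker neighbour 26546 bp away (47225247 to 47226489) with 10.4 to 41.9. The second-ranked region at 3q13.2 likewise had a neighbour 26962 bp away (112498540 to 112499641) with 25.2 and 26.1 in ALDH-high libraries a and c and 48.1, 30.8 and 44.1 in ALDH-low libraries.

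The nearest DTP peak of any kind was a median of 7988 bp from a transient region, against 12712 bp for the 14632 other regions without a sorted DMSO or DTP call. It was within 500 bp for 17 transient regions and beyond 50 kb for 28. Within 5 kb it was found for 171 transient regions (36.2%), against 23.8% of those other regions. A sorted DMSO peak lay within 5 kb of 150 transient regions (31.7%), against 18.04% of kept regions and 20.4% of the other regions. Its median distance was 10593 bp for transient and 13565 bp for kept regions. These distances were not tested. For regions called in all 18 libraries the shares within 5 kb were 9.51% of transient and 5.35% of kept regions. Leaving out regions with a sorted DMSO or DTP peak within 500 bp, a limit set after seeing the data, left 455 of the 473.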

How the data were processed

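Open chromatin was measured by ATAC-seq in 18 libraries, from frozen and thawed cells per the labels' protocols. Each library had 1 deposited peak list with a score per peak, on hg19. The submitters' processing notes name BWA and MACS 1.4.2. For trimming, duplicate removal, read shifting, calling parameters and the scale of the score, the steps were not given in the sources used here. Scores start at 70 in every list and were used as percentiles within a list. Read depth is unknown.

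Merging at 1 bp of overlap covered chromosomes 1 to 22 and X, which left out 3 to 7 peaks of each list, and bedtools 2.31.1 gave the same result. Bands are those of the circlize 0.4.16 package. Where a library had several peaks in a region, the strongest gave the percentile, and the width ran from the first to the last called base. Groups came from the sample titles. The regions, sets and named items were chosen with earlier results of these data known. No p is given for values over transient regions alone. The regions named were the 15 held by all 6 erlotinib libraries with the highest percentile in their weakest erlotinib library, the 5 ranked highest among those in all PC9 libraries, the 5 widest, the 3 lowest and 3 groups with neighbours within 50 kb. The groups were the only one of 3 regions and, of 17 tied with 2, the 2 with the highest such percentile. Exact permutation tests over libraries were run in Python 3.11.15 and tested on simulated data. Alternatives were a score of at least 100, 50% coverage of a region, lists of equal size, all 6 erlotinib libraries, each library left out and a replicate block. Motifs and distances to genes were not analysed here.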

Additional observations from a re-analysis of the deposited data

How the results depend on the processing

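The 473 regions became 531 with a score of at least 100 in all lists (166 of them overlapping one of the 473) and 617 with 50% coverage (433 overlapping). They became 333 with lists of equal size (106 overlapping), 187 when all 6 erlotinib libraries had to hold a region and 166 with a score of at least 100 in the erlotinib lists alone, a setting chosen after seeing the data. Leaving out each library in turn gave 473 to 686, and all of the 473 stayed in every such setting. Fewer erlotinib libraries were required when an erlotinib library was left out. No omission could thus lower the count, and the range is no measure of stability. The share held by at least 1 PC9 library was 22%. It became 18.1% at a score of at least 100, 17.5% with 50% coverage, 7.21% with lists of equal size, 16.6% with all 6 erlotinib libraries and 14.5% with a score of at least 100 in erlotinib lists alone, and was 18.2% to 27.3% with a library left out. Shorter PC9 lists hold fewer regions by construction in equal lists.

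The difference in percentile from kept regions stayed negative under all alternatives. It was −6.10 (exact permutation p = 0.0625) with all 6 erlotinib libraries and −10.1 to −6.79 with a library left out, where 5 libraries cannot give an exact permutation p below 0.0625. The difference in width was −22.9 bp at a score of at least 100 (exact permutation p = 0.031), 0.25 bp with 50% coverage and −37.0 to −12.1 bp with a library left out. Its direction was therefore not settled.

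Between ALDH-high and ALDH-low libraries, the share held differed by −0.141 points, turning to 0.126 without ALDH-high DMSO library a, 3.82 and 1.66 without ALDH-low erlotinib libraries a and b, and 0.729 without ALDH-high erlotinib library b (range −6.28 to 3.82). The percentile difference was −5.55 to −1.32 with a library left out, and weakest without ALDH-low erlotinib library a. The difference in width (−20.8 bp) turned to 2.50 bp without ALDH-low erlotinib library a, with −27.7 as the lowest. The causes were not tested. A replicate block, exchanging only libraries with the same letter, left these differences at −0.141 points, −4.95 percentile points and −20.8 bp, and changed no call. Same-letter libraries did not deviate together (correlations of −0.0858 to 0.00785 over 187 regions), so the letters were not taken as pairs.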
